A study of Mus musculus with 8 samples.

Results

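Transcripts of 38 mouse genes of the hypoxia response and of glycolysis were measured in small intestinal organoids that had received 6 Gy of X-rays or had been left untreated. The 38 genes are a list of symbols, 22 of them parts or targets of the hypoxia-inducible factor (HIF) pathway and 16 of them proteins of glucose uptake and glycolysis. All 38 were found among the 55416 Ensembl genes of the deposited tables, and all 38 were among the 14063 genes with enough counts to be tested. The list names no contrast and no threshold, but it was drawn up with earlier results of these libraries known, so its counts and medians are descriptions and support nothing by themselves. The 4 groups were irradiated organoids at day 4, control organoids at day 4, irradiated organoids at day 7 and control organoids at day 7, with 2 libraries in each and 8 in all. The cultures came from intestinal epithelium of C57BL/6 mice aged 4 to 8 weeks, and every group, controls included, carried 2 transgenes, Rosa26-rtTA Tg/Tg and also Col1A1-TetO-OSKM Tg/Tg. The first places a doxycycline-dependent activator at the Rosa26 locus. The second places Pou5f1, Sox2, Klf4 and Myc, which can reprogram cells, under a TetO promoter. The labels do not tell whether the factors were induced, from when the days were counted, or whether the libraries of a group came from separate cultures or animals. The p-values therefore measure the spread between these libraries, which may be technical.

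HIF is a transcription factor whose alpha subunit is hydroxylated by oxygen-dependent enzymes and then degraded. When oxygen is scarce the subunit persists, pairs with Arnt and binds short DNA motifs near target genes, which raises glucose uptake, glycolysis, lactate export, vessel growth factors and mitophagy, and limits the entry of pyruvate into mitochondria. Intestinal epithelium is known for a steep oxygen gradient between the crypt base and the lumen, and HIF activity there has been linked to barrier function. Much of this control acts on the HIF alpha protein, which RNA sequencing does not measure.

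The core of the DNA motif that HIF binds is ACGTG or GCGTG, and promoter windows that hold it are shown for 9 members that the results below turn on. Windows came from RefSeq (build GRCm38.p6), and the 250 bases before each annotated start were searched on both strands, so that CACGT and CACGC also count and the palindrome CACGTG counts once per strand. Of the 38 members 36 had a window, and Bnip3l and Ndrg1 had none. In 33 of these 36 genes (91.7%) at least 1 window held the core, against 6114 of 9990 tested genes with a window (61.2%) and 11226 of 27025 genes in all (41.5%). The form ACGTG, which also covers CACGTG, stood in 22 of the 36 (61.1%), against 2498 of the 9990 tested genes and 18.5% of all genes. Gpi1, Tpi1 and Vldlr had no match in these windows. The core holds a CG pair, and the windows were not matched for base composition or for the number of starts per gene. A match describes these letters and is no evidence of binding. Each line gives 1 stretch 5' to 3' on the strand of the gene, with every match in capitals.
Bnip3, chr7:138909585-138909639, minus strand: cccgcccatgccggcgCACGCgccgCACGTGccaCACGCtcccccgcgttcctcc
Slc16a3, chr11:120949015-120949066, plus strand: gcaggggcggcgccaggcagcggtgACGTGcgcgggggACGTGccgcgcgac
P4ha2, chr11:54100830-54100884, plus strand: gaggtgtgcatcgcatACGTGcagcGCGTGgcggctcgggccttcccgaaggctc
Egln1, chr8:124949293-124949347, minus strand: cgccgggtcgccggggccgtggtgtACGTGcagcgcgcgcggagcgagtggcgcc
Pdk1, chr2:71873121-71873175, plus strand: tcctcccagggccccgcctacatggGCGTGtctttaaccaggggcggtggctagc
Hk2, chr6:82774477-82774531, minus strand: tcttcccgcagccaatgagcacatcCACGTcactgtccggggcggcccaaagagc
Pgk1, chrX:106186925-106186979, plus strand: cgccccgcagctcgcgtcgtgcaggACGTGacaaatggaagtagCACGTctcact
Ddit4, chr10:59951928-59951982, minus strand: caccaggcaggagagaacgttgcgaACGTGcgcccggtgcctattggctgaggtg
Pfkfb4, chr9:108991760-108991814, plus strand: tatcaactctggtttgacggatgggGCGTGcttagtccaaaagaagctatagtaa
The windows of Bnip3, Slc16a3, P4ha2 and Pgk1 hold several matches within 1 stretch. The windows of Ddit4 and Pfkfb4, the 2 members whose irradiation effect differed between the days, hold the core as well.

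The libraries held 7541764 to 16054269 counts, so that 1 count stood for 0.0610 to 0.120 CPM (counts scaled to a common library total), and the share of transcripts of the mitochondrial genome was 12.9% to 27.6%. Epithelial markers were present throughout: Epcam had 6227 to 16805 counts and Vil1 3861 to 8916 counts per library. Of 7 immune and 5 endothelial markers, Adgre1, Cdh5 and Kdr had 0 counts in all 8 libraries, Ptprc had 0 to 2, and 3 of each list had enough counts to be tested. At day 4, 2 of the 3 immune markers were called higher, among them Csf1r with 17 and 15 counts in irradiated and 1 and 1 in control organoids, and 1 endothelial marker was called higher and 1 lower, Egfl7 with 6 and 5 counts in irradiated and 29 and 51 in control organoids. Summed levels of the immune list were 3.56 to 4.49 TPM (transcript abundance per unit of length) in irradiated and 3.05 to 4.61 TPM in control organoids at day 4. At day 7 they were 2.66 to 4.76 TPM in irradiated and 3.61 to 3.66 TPM in control organoids. The 7 mesenchymal markers summed to 14.85 to 19.11 TPM in irradiated and 15.26 to 16.94 TPM in control organoids at day 4. At day 7 they summed to 3.65 to 5.86 TPM in irradiated and 3.55 to 4.46 TPM in control organoids. Among them Vim had 162 to 229 counts at day 4 and 20 to 50 at day 7. Levels of markers of epithelial cell types differed between the groups. The 10 enterocyte markers summed to 5212 and 7887 TPM in irradiated and 1052 to 1205 TPM in control organoids at day 4. At day 7 they summed to 2198 to 2220 TPM in irradiated and 1099 to 1101 TPM in control organoids. The 8 proliferation markers summed to 446 to 651 TPM in irradiated and 971 to 984 TPM in control organoids at day 4, and to 1001 to 1041 TPM in irradiated and 953 to 958 TPM in control organoids at day 7. By edgeR 7 of them were called lower and 0 higher at day 4. At day 7 1 was called lower and 0 higher, with a median log2 fold change of 0.009. The 5 markers of crypt base stem cells summed to 329 to 368 TPM in irradiated and 696 to 792 TPM in control organoids at day 4 (3 called lower), and to 951 to 955 TPM in irradiated and 1335 TPM in control organoids at day 7 (2 called lower). The 5 Paneth cell markers summed to 8522 to 10186 TPM in irradiated and 2925 to 5005 TPM in control organoids at day 4, where 5 were called higher, and 0 were called at day 7. All 5 tuft cell markers were called lower at day 4, with sums of 2.52 to 3.86 TPM in irradiated and 9.25 to 9.31 TPM in control organoids, and 0 were called at day 7. In bulk RNA fewer cells of a type and less RNA per cell cannot be told apart, and the part of these shifts in the results below was not tested. Irradiated replicate 2 of day 4, whose mitochondrial share and enterocyte sum were the highest of the 8, stood apart from its partner in the members. With 2 libraries it cannot be told which is the unusual one. For the members not called at day 4, the value without replicate 2 is also given. Replicate 2 lay nearer the controls in most members, so these values lie further below 0. They rest on replicate 1 alone, so only the effect size is given. Replicate 2 alone would give these members values nearer 0 or above it. The values from replicate 1 are therefore 1 end of a range and not the likelier effect. The members' median at day 4 is also given without replicate 1.

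At day 4 most members of both branches were lower in irradiated than in control organoids. Of the 38 members, 18 fell and 2 rose, Pfkfb4 and Hif1a, the second with a direction that turned on the TPM scale, where its value was -0.013 (edgeR quasi-likelihood test over all genes, adjusted p below 0.05), in a comparison that called 16.5% of all tested genes lower and 20.0% higher. The median log2 fold change of the members was -0.92, against 0.00 over all tested genes, and 36 of the 38 values were below 0. The 22 HIF members had a median of -1.15 with 10 lower, and the 16 members of glucose uptake and glycolysis a median of -0.67 with 8 lower. In 30 members both irradiated libraries lay below both controls and in 2 they lay above, with 31.8% and 33.4% of all tested genes in those positions. Together the members took 0.757% and 1.09% of all counts in irradiated organoids, against 1.67% and 1.95% in controls. Without irradiated replicate 2 of day 4 the members' median was -1.35 with 36 values below 0. Without irradiated replicate 1 it was -0.55 with 33 below 0. In these fits the lone irradiated library was assumed to vary like the other groups. On the log2(TPM + 1) scale the median of all genes shifted by -0.17 and that of the members was -1.10, and the share of genes called was 12.0% lower and 7.67% higher.

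At day 7 most members were again lower in irradiated than in control organoids. Of the 38 members, 14 fell and 0 rose by edgeR, where the comparison called 8.65% of all tested genes, 3.95% lower and 4.70% higher. At an unadjusted p below 0.05, 30 members were lower and 0 higher, and the share of all genes at that level was not counted. DESeq2 called 22 lower and 0 higher, with 2.51% of all genes lower and 3.80% higher. The median log2 fold change was -0.95, against 0.00 over all tested genes, and 35 of the 38 values were below 0 in every alternative fit. The 22 HIF members had a median of -1.34 with 8 lower, and the 16 members of glucose uptake and glycolysis a median of -0.75 with 6 lower. Both irradiated libraries lay below both controls in 35 members and above them in 2, Hif1a and Ddit4, and 32.6% and 33.3% of all tested genes lay so. The members took 0.796% and 0.832% of all counts in irradiated organoids, against 1.29% and 1.32% in controls. The count of calls changed with the libraries fitted. Fitting only the 4 libraries of day 7 called 35 lower and 2 higher, with 17.5% of all genes lower and 18.8% higher. Leaving out an irradiated library of day 4 raised the calls among the members and over all genes. Leaving out any library of day 7 removed most of both. On the log2(TPM + 1) scale, with a shift of 0.12 in the median of all genes, the members' median was -0.80, 9 members were called lower, and the share of genes called was 0.493% lower and 2.20% higher.

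**Figure D1:**
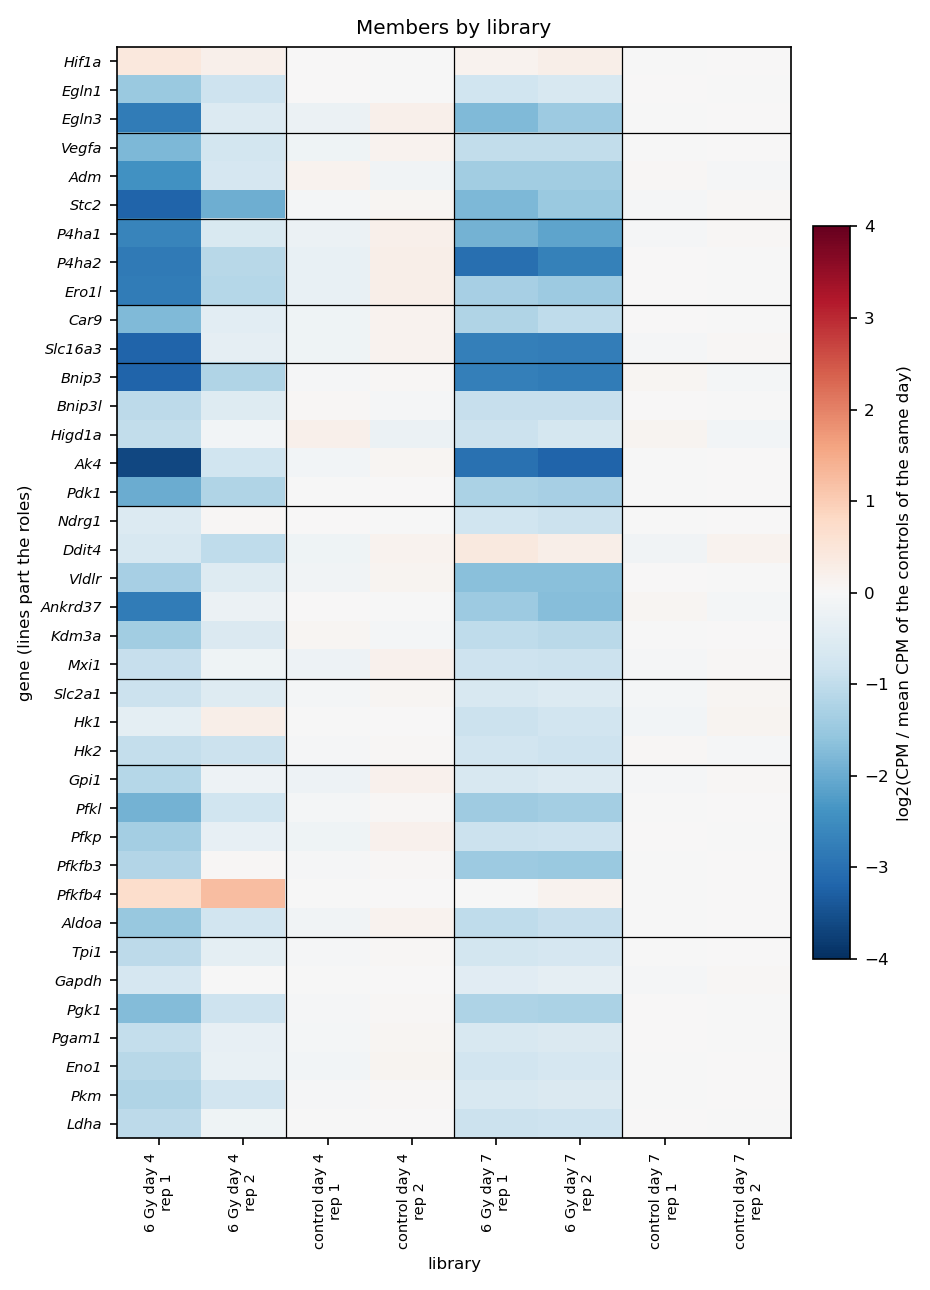
Level of each of the 38 members (rows, grouped by role) in each of the 8 libraries (columns), as log2 of the CPM over the mean CPM of the controls of the same day. Blue is lower and red higher than control. Irradiated replicate 1 of day 4 and both irradiated libraries of day 7 have medians of -1.34, -0.95 and -0.92, and irradiated replicate 2 of day 4 has a median of -0.53.

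**Figure D2:**
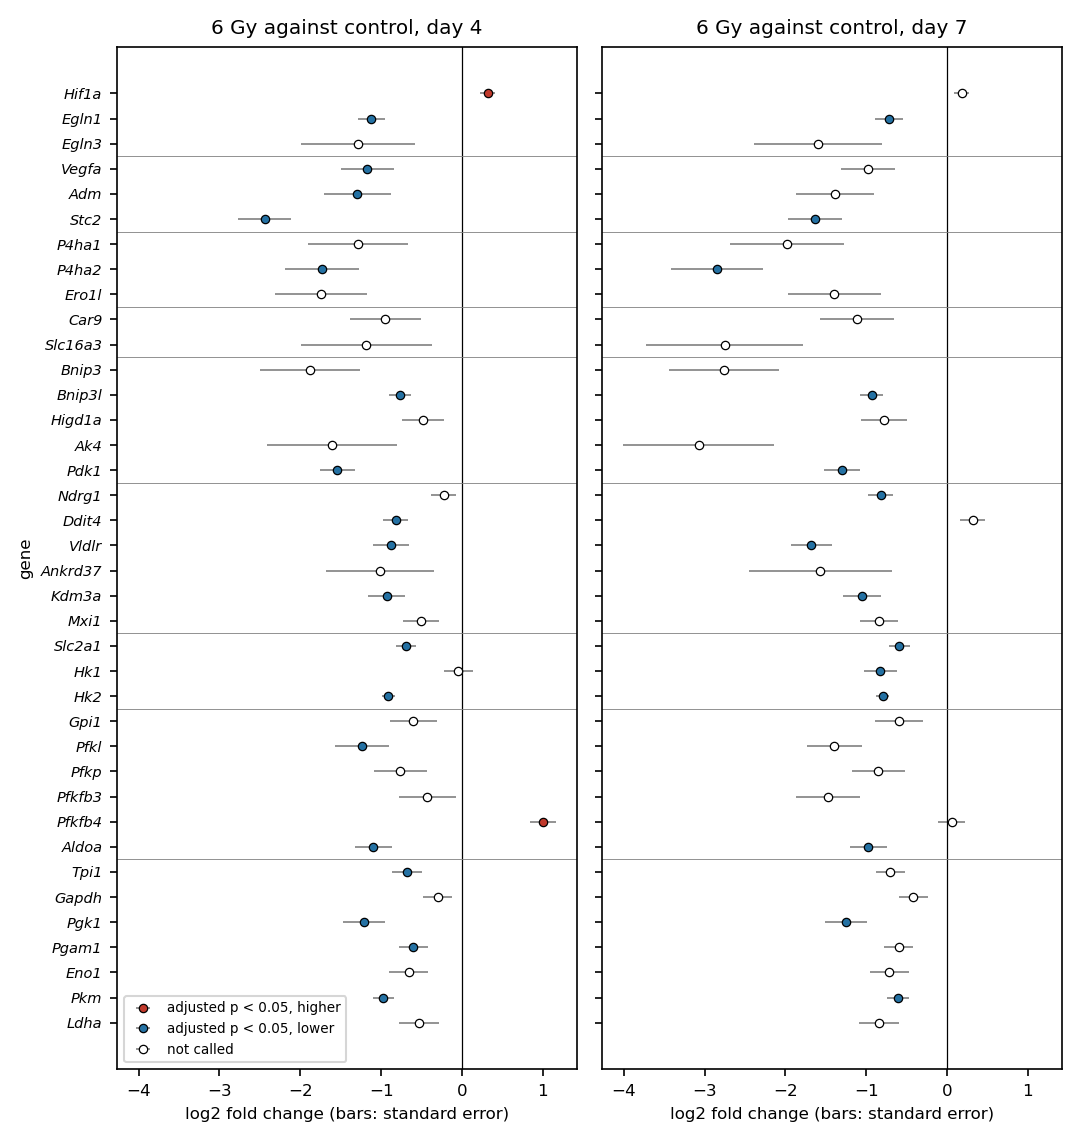
Log2 fold change of each member, irradiated against control, at day 4 (left) and at day 7 (right), with standard errors as bars (n = 2 libraries per group). Filled points passed an adjusted p of 0.05 in the edgeR fit over all genes, 20 at day 4 and 14 at day 7.

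Among the 3 oxygen-sensing members, Egln1 fell at both days and Egln3 was not called. Hif1a encodes the oxygen-regulated alpha subunit. It stood at 139.8 and 119 CPM in irradiated and 105 and 103 CPM in control organoids at day 4, and at 122 and 129 in irradiated and 110.4 and 110.4 CPM in control organoids at day 7. The irradiated libraries lay above the controls at both days by a small margin. At day 4 its log2 fold change was 0.32 ± 0.09 (SE, edgeR adjusted p = 0.0182), a direction that turned on the TPM scale, where it was -0.013. At day 7 it was 0.18 ± 0.09 (edgeR adjusted p = 0.236). Egln1 is the main hydroxylase that marks the subunit for degradation. Its level was 32.3 and 50.5 CPM in irradiated and 90.2 and 89.5 CPM in control organoids at day 4, and 39.0 and 43.6 in irradiated and 68.4 and 67.1 CPM in control organoids at day 7, without overlap. It fell at day 4 (-1.12 ± 0.17, edgeR adjusted p = 0.00124) and at day 7 (-0.72 ± 0.17, edgeR adjusted p = 0.0391). Egln3, a second hydroxylase that is itself a HIF target, had 27.6 and 130.2 CPM in irradiated and 162 and 221 CPM in control organoids at day 4. At day 7 it had 19.8 and 24.4 in irradiated and 65.8 and 67.9 CPM in control organoids. The groups did not overlap at either day, but the irradiated libraries of day 4 lay far apart and Egln3 was not called (edgeR adjusted p = 0.237 at day 4 and 0.299 at day 7). Without irradiated replicate 2 of day 4 the log2 fold change of Egln3 at day 4 was -2.80, a value that rests on replicate 1 alone.

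All 3 secreted factors fell at day 4 and 1 of them, Stc2, fell at day 7. Stc2, a secreted glycoprotein hormone, had the largest fall among the members called at day 4. It stood at 7.42 and 17.9 CPM in irradiated and 64.2 and 72.7 CPM in control organoids at day 4, and at 11.0 and 13.7 in irradiated and 37.3 and 39.2 CPM in control organoids at day 7. Both irradiated libraries lay far below both controls at each day. The log2 fold change was -2.44 ± 0.33 at day 4 (edgeR adjusted p = 0.0018) and -1.63 ± 0.34 at day 7 (edgeR adjusted p = 0.0361). Vegfa, the vascular growth factor, had 51.1 and 106 CPM in irradiated and 158 and 196 CPM in control organoids at day 4 (-1.17 ± 0.33, edgeR adjusted p = 0.0417). At day 7 it had 56.2 and 55.9 in irradiated and 109 and 112 CPM in control organoids (-0.98 ± 0.34, edgeR adjusted p = 0.149). The groups did not overlap, and the fall passed the threshold at day 4. Adm, a vasodilator peptide, stood at 1.83 and 6.21 CPM in irradiated and 10.8 and 8.96 CPM in control organoids at day 4 (-1.30 ± 0.41, edgeR adjusted p = 0.0358), and at 1.94 and 1.93 in irradiated and 5.26 and 4.87 CPM in control organoids at day 7 (-1.38 ± 0.48, edgeR adjusted p = 0.113). The day 4 calls of Vegfa and Adm were kept in 9 and 8 of 17 alternatives.

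Of the 3 enzymes that modify collagen or form disulfide bonds, P4ha2 fell at both days. P4ha1 and P4ha2 are catalytic subunits of the collagen prolyl hydroxylase. P4ha2 had 3.76 and 12.3 CPM in irradiated and 21.6 and 31.5 CPM in control organoids at day 4, and 2.14 and 2.65 in irradiated and 17.3 and 17.1 CPM in control organoids at day 7. It fell at both days, without overlap between the groups (-1.73 ± 0.46, edgeR adjusted p = 0.0273, and -2.85 ± 0.57, edgeR adjusted p = 0.0345). P4ha1 stood at 13.1 and 54.0 CPM in irradiated and 69.3 and 94.2 CPM in control organoids at day 4, and at 12.9 and 11.1 in irradiated and 46.1 and 48.5 CPM in control organoids at day 7. Its groups did not overlap either, but it was not called (edgeR adjusted p = 0.181 and 0.171). Ero1l, the oxidase that drives disulfide bond formation in the endoplasmic reticulum, had 126 and 394 CPM in irradiated and 707 and 1029.9 CPM in control organoids at day 4, and 137 and 125 in irradiated and 349 and 341 CPM in control organoids at day 7. The groups lay apart at both days, with log2 fold changes of -1.74 ± 0.57 and -1.40 ± 0.57 that were not called (edgeR adjusted p = 0.0772 and 0.223). Without irradiated replicate 2 of day 4 the day 4 values were -2.65 for P4ha1 and -2.79 for Ero1l, from replicate 1 alone.

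Neither of the 2 genes of pH control and lactate export was called by edgeR in the fit of all groups, although their libraries did not overlap. Slc16a3 is the lactate exporter of glycolytic cells. It stood at 8.49 and 61.3 CPM in irradiated and 70.0 and 87.9 CPM in control organoids at day 4, and at 8.06 and 7.82 in irradiated and 51.9 and 55.2 CPM in control organoids at day 7. Irradiated replicate 2 of day 4 was close to the controls, and the other 3 irradiated libraries were far below them. The log2 fold change was -1.18 ± 0.81 at day 4 and -2.75 ± 0.97 at day 7 (edgeR adjusted p = 0.331 and 0.174). Car9, a carbonic anhydrase of the cell surface, had 53.8 and 138 CPM in irradiated and 164 and 205 CPM in control organoids at day 4, and 44.3 and 50.2 in irradiated and 102 and 102 CPM in control organoids at day 7. Its fold changes were -0.95 ± 0.44 and -1.11 ± 0.46 on the log2 scale, with the same gap between the irradiated libraries of day 4 (edgeR adjusted p = 0.163 and 0.218). At an unadjusted p below 0.05, 0 of the 2 were lower at day 4 and 1 at day 7, and the share of all genes at that level was not counted. DESeq2 called Slc16a3 lower at day 7 (adjusted p = 0.036), and limma on log2(TPM + 1) called Car9 lower at day 4 (adjusted p = 0.0222). With irradiated replicate 2 of day 4 left out, the day 4 values were -3.22 for Slc16a3 and -1.79 for Car9, from replicate 1 alone.

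Of the 5 mitochondrial members, Pdk1 and Bnip3l fell at both days. Pdk1 is the kinase that shuts pyruvate dehydrogenase. It had 71.9 and 123 CPM in irradiated and 282 and 287 CPM in control organoids at day 4, and 88.6 and 86.3 in irradiated and 213 and 217 CPM in control organoids at day 7. The log2 fold change was -1.54 ± 0.22 at day 4 (edgeR adjusted p = 0.00218) and -1.30 ± 0.22 at day 7 (edgeR adjusted p = 0.0191). Ak4, an adenylate kinase of the mitochondrial matrix, had the largest difference of all members at day 7. It stood at 9.57 and 68.8 CPM in irradiated and 111 and 127 CPM in control organoids at day 4, and at 11.5 and 9.87 in irradiated and 90.1 and 90.8 CPM in control organoids at day 7. The 2 irradiated libraries of day 7 were close together and far below their controls, while those of day 4 differed 7.19-fold. In the fit of all groups it was not called (-1.60 ± 0.81, edgeR adjusted p = 0.201, and -3.07 ± 0.94, edgeR adjusted p = 0.132). Bnip3 is a receptor that targets mitochondria to autophagy. It had 21.5 and 86.4 CPM in irradiated and 190.4 and 207 CPM in control organoids at day 4, and 19.6 and 18.8 in irradiated and 138 and 122 CPM in control organoids at day 7. The groups lay apart at both days but were not called (-1.88 ± 0.62, edgeR adjusted p = 0.0782, and -2.76 ± 0.68, edgeR adjusted p = 0.0873). Its relative Bnip3l had smaller differences that were called (-0.76 ± 0.14, edgeR adjusted p = 0.00239, and -0.93 ± 0.14, edgeR adjusted p = 0.00627). Higd1a, a protein of the inner mitochondrial membrane, was not called at either day in the edgeR fit of all groups (-0.48 and -0.78 on the log2 scale). With irradiated replicate 2 of day 4 left out, the day 4 values were -3.64 (Ak4), -3.21 (Bnip3) and -0.97 (Higd1a), from replicate 1 alone. In Higd1a replicate 2, at 31.5 CPM, lay between the controls, at 39.5 and 29.1 CPM.

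**Figure D3:**
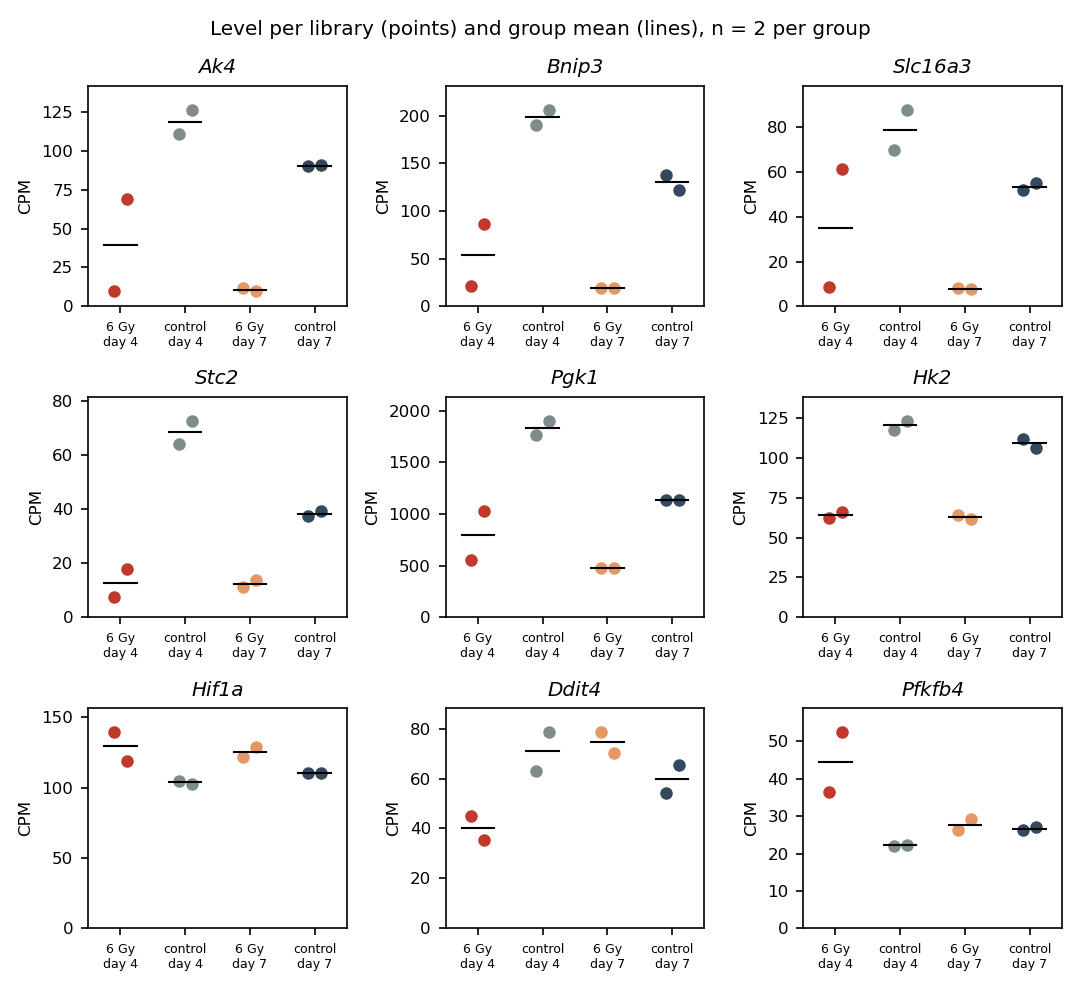
Level in CPM of 9 members in each library (points, n = 2 per group) with the group mean (lines), all axes starting at 0. Ak4, Bnip3, Slc16a3, Stc2, Pgk1 and Hk2 are lower in irradiated organoids at both days, Hif1a is higher in CPM, a direction that turned at day 4 on the TPM scale, and Ddit4 and Pfkfb4 differ from control in opposite directions at day 4. In Ak4 and Slc16a3 the 2 irradiated libraries of day 4 lie 7.19-fold and 7.22-fold apart.

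The remaining 6 HIF targets act in stress signalling, transcription and lipid uptake, and 3 of them fell at each day. Vldlr, a receptor for lipoproteins, had 31.1 and 54.3 CPM in irradiated and 71.9 and 85.1 CPM in control organoids at day 4, and 14.0 and 14.1 in irradiated and 45.5 and 44.5 CPM in control organoids at day 7. It fell at both days without overlap (-0.88 ± 0.22, edgeR adjusted p = 0.0174, and -1.68 ± 0.25, edgeR adjusted p = 0.00955). Kdm3a, a histone demethylase, stood at 97.3 and 169 CPM in irradiated and 267 and 239.6 CPM in control organoids at day 4, and at 105 and 100.2 in irradiated and 208 and 217 CPM in control organoids at day 7. It too fell at both days (-0.93 ± 0.23, edgeR adjusted p = 0.0216, and -1.05 ± 0.23, edgeR adjusted p = 0.0447). Ankrd37 had 3.55 and 20.9 CPM in irradiated and 24.8 and 24.5 CPM in control organoids at day 4, and 3.16 and 2.65 in irradiated and 9.13 and 8.28 CPM in control organoids at day 7, and was not called (edgeR adjusted p = 0.305 and 0.344). Ndrg1, a stress-responsive gene, overlapped between the groups at day 4 and fell at day 7 (-0.82 ± 0.16, edgeR adjusted p = 0.0164). Mxi1, an antagonist of MYC, was called at neither day in the edgeR fit of all groups (-0.51 and -0.84 on the log2 scale). Ddit4 fell at day 4 and was not called at day 7, and its values stand with the comparison of the days. With irradiated replicate 2 of day 4 left out, the day 4 values were -2.79 (Ankrd37), -0.54 (Ndrg1) and -0.94 (Mxi1), from replicate 1 alone. In Ndrg1 replicate 2, at 834 CPM, lay above both controls, at 825 and 806 CPM. In Mxi1 it lay between them, at 48.8 CPM against 48.3 and 61.9 CPM.

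Of the 3 genes of glucose uptake and phosphorylation, Hk2 and Slc2a1 fell at both days and Hk1 fell at day 7. Hk2, the inducible hexokinase, had 62.5 and 66.1 CPM in irradiated and 118 and 123 CPM in control organoids at day 4, and 64.1 and 61.6 in irradiated and 112 and 106 CPM in control organoids at day 7. The libraries of a group were close together and the groups lay well apart. Its fall had the smallest p of the members at both days (-0.91 ± 0.081, edgeR adjusted p = 2.85e-05, and -0.79 ± 0.082, edgeR adjusted p = 0.000723). Slc2a1, a glucose transporter, stood at 40.3 and 51.5 CPM in irradiated and 69.4 and 78.5 CPM in control organoids at day 4, and at 39.5 and 41.7 in irradiated and 57.9 and 64.5 CPM in control organoids at day 7. It fell at both days without overlap (-0.69 ± 0.13, edgeR adjusted p = 0.00198, and -0.59 ± 0.13, edgeR adjusted p = 0.0213). Hk1, the hexokinase of most tissues, had 34.6 and 54.2 CPM in irradiated and 44.9 and 46.6 CPM in control organoids at day 4, and 14.4 and 15.3 in irradiated and 24.4 and 28.1 CPM in control organoids at day 7. The groups overlapped at day 4 (-0.04 ± 0.18, edgeR adjusted p = 0.877), and Hk1 fell at day 7 (-0.83 ± 0.20, edgeR adjusted p = 0.0384). Hk1 was at -0.40 at day 4 from irradiated replicate 1 alone, and replicate 2 lay above both controls.

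In upper glycolysis, 2 of 6 members fell and Pfkfb4 rose at day 4, and 1 fell at day 7. Aldoa, an aldolase that splits fructose bisphosphate, had 531 and 903 CPM in irradiated and 1384 and 1678 CPM in control organoids at day 4, and 520.0 and 561 in irradiated and 1050.2 and 1072 CPM in control organoids at day 7. It fell at both days without overlap (-1.09 ± 0.23, edgeR adjusted p = 0.0102, and -0.97 ± 0.23, edgeR adjusted p = 0.049). Pfkl, a subunit of phosphofructokinase, stood at 72.3 and 155 CPM in irradiated and 256 and 279 CPM in control organoids at day 4, and at 85.7 and 90.2 in irradiated and 228 and 234 CPM in control organoids at day 7. The fall passed the threshold at day 4 (-1.24 ± 0.34, edgeR adjusted p = 0.0393), and at day 7 the value was -1.39 ± 0.34 (edgeR adjusted p = 0.0733). Pfkfb3 makes the sugar phosphate that activates phosphofructokinase. It had 31.4 and 72.8 CPM in irradiated and 67.6 and 72.5 CPM in control organoids at day 4, and 16.6 and 16.1 in irradiated and 44.6 and 46.1 CPM in control organoids at day 7. The groups overlapped at day 4 and lay apart at day 7, with no call at either (-0.43 ± 0.35, edgeR adjusted p = 0.399, and -1.47 ± 0.40, edgeR adjusted p = 0.0842). Pfkp, another subunit of phosphofructokinase, and the isomerase Gpi1 were not called in the edgeR fit of all groups (-0.76 and -0.60 at day 4, and -0.85 and -0.59 at day 7, on the log2 scale). With irradiated replicate 2 of day 4 left out, the day 4 values were -1.16 (Pfkfb3), -1.35 (Pfkp) and -1.13 (Gpi1), from replicate 1 alone. In Pfkfb3 replicate 2 lay at the level of the controls. A fit of only the 2 groups called Pfkfb3, Pfkp and Gpi1 lower at day 7, where it called 17.5% of all tested genes lower.

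In lower glycolysis, 4 of 7 members fell at day 4 (Tpi1, Pgk1, Pgam1 and Pkm) and 2 at day 7 (Pgk1 and Pkm). Pgk1, the first ATP-producing kinase of the pathway, had 557 and 1030.1 CPM in irradiated and 1768 and 1906 CPM in control organoids at day 4, and 481 and 475 in irradiated and 1139.8 and 1138 CPM in control organoids at day 7. It had the largest difference of the 7 at both days (-1.21 ± 0.26, edgeR adjusted p = 0.0111, and -1.25 ± 0.26, edgeR adjusted p = 0.0353). Pkm, a pyruvate kinase, stood at 1048 and 1410.1 CPM in irradiated and 2313 and 2503 CPM in control organoids at day 4, and at 1113 and 1162 in irradiated and 1714 and 1747 CPM in control organoids at day 7. It fell at both days without overlap (-0.97 ± 0.13, edgeR adjusted p = 0.00038, and -0.61 ± 0.13, edgeR adjusted p = 0.0216). Ldha, the lactate dehydrogenase subunit of glycolytic tissue, had 662 and 1219 CPM in irradiated and 1359 and 1361 CPM in control organoids at day 4, and 555 and 564 in irradiated and 1008 and 995 CPM in control organoids at day 7. The groups did not overlap and Ldha was not called (edgeR adjusted p = 0.147 and 0.0937). Gapdh, often used as a reference gene, was not called (-0.30 ± 0.18 and -0.42 ± 0.18), and its groups overlapped at day 4. The log2 fold changes of Tpi1, Pgam1 and Eno1 lay between -0.68 and -0.60 at day 4 and between -0.71 and -0.60 at day 7. Pgk1, Pkm, Ldha, Gapdh, Aldoa, Bnip3 and Ak4 are among 23 members whose deposited counts were not whole in every library, since the counting shared their reads with other genes. With irradiated replicate 2 of day 4 left out, the day 4 values were -1.04 (Ldha), -0.67 (Gapdh) and -1.12 (Eno1), from replicate 1 alone. In Gapdh replicate 2, at 2386 CPM, lay between the controls, at 2382 and 2400 CPM.

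Among the 20 calls of day 4, those of Egln1, Stc2, Bnip3l, Pdk1, Slc2a1, Hk2, Pfkfb4 and Pkm were kept in all 17 alternatives, and the other 12 were lost in at least 1. The day 4 calls of Hif1a and Adm were kept in 8, and those of Vegfa and Pfkl in 9. Of the 14 calls of day 7, 0 were kept in all 17, and that of Hk2 was kept in most, 14. That of Aldoa was kept in fewest, 5. Those of Egln1 and Hk1 were kept in 8, and those of Kdm3a and Pgk1 in 9.

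Per unit of length, 8 glycolytic enzymes had higher mean levels than any HIF member, while Hk1, Hk2, Pfkfb3 and Pfkfb4 were among the low members, at 13.0 to 21.8 TPM. Gapdh had the highest mean over the 8 libraries, 2103 TPM, followed by Gpi1, Aldoa, Pkm, Ldha, Pgk1, Tpi1 and Eno1 between 1003 and 471 TPM. The most abundant HIF members were Ndrg1 at 273 TPM and Ero1l at 169 TPM, and the least abundant members were Adm at 5.45 TPM, P4ha2, and Stc2 at 11.4 TPM. Gpi1, Aldoa, Pkm and Ldha were close to one another in this order: at day 4 Gpi1 stood at 659.5 and 972 TPM in irradiated and 1209 and 1715 TPM in control organoids. Pkm stood at 610.1 and 648 TPM in irradiated and 1343 and 1564 TPM in control organoids at day 4, so that the ranges of Gpi1 and Pkm overlapped in control but not in irradiated organoids.

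The 2 irradiated libraries of day 4 differed in the members more than the libraries of any other group. Replicate 2 was above replicate 1 in 36 of 38 members (94.7%), against 47.5% of all tested genes, and the exceptions were Hif1a and Ddit4. The median log2 gap was 0.83 over all members, 1.16 over the 22 HIF members and 0.71 over the 16 glycolytic ones, against -0.02 over all tested genes. The widest gaps were those of Slc16a3 (7.22-fold), Ak4 (7.19-fold), Ankrd37 (5.89-fold), Egln3 (4.71-fold), P4ha1 (4.12-fold) and Bnip3 (4.02-fold). In the other groups the median gap was 0.12 in controls of day 4, 0.02 in irradiated organoids of day 7 and 0.02 in controls of day 7. Relative to the controls of day 4, replicate 1 had a median of -1.34 and replicate 2 one of -0.53. Mitochondrial transcripts took 20.3% of counts in replicate 1 and 27.6% in replicate 2, enterocyte markers summed to 5212 and 7887 TPM, and proliferation markers to 651 and 446 TPM. The part of these differences in the gap was not tested.

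**Figure D4:**
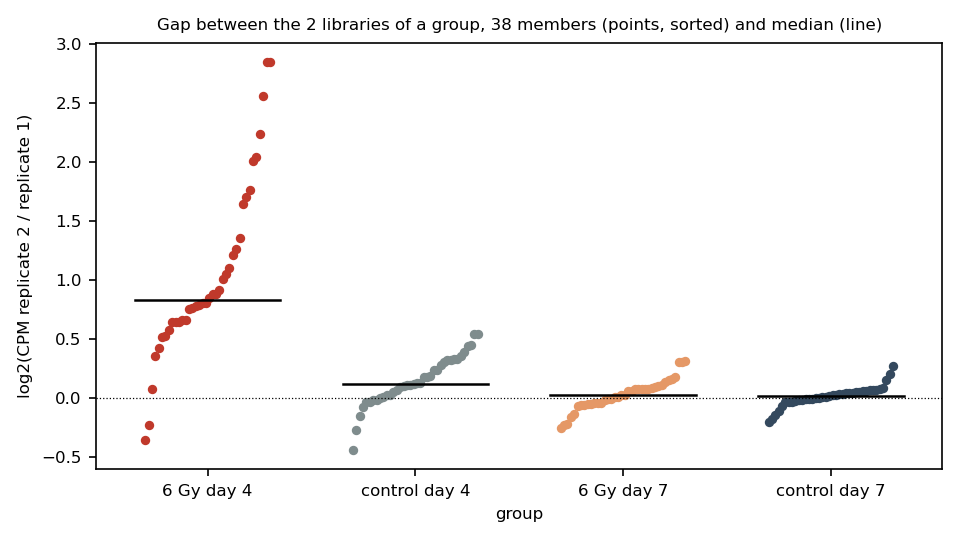
Log2 ratio of replicate 2 to replicate 1 for each of the 38 members (points, sorted within a group) in each of the 4 groups, with the median as a line. In irradiated organoids of day 4 the points reach a 7.22-fold gap with a median of 0.83, and the other 3 medians are 0.12, 0.02 and 0.02.

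Whether the irradiation effect differed between the days was tested as the effect at day 7 less that at day 4. The effect differed for 2 members, Ddit4 and Pfkfb4, where the test called 10.1% of all tested genes, 4.60% higher and 5.51% lower. Both genes were singled out after their values were seen. Ddit4, an inhibitor of the growth kinase mTOR, stood at 78.8 and 70.4 CPM in irradiated and 54.1 and 65.5 CPM in control organoids at day 7, and at 45.2 and 35.4 in irradiated and 62.9 and 78.8 CPM in control organoids at day 4. Its irradiated libraries lay above the controls at day 7 and below them at day 4. The log2 effect was 0.32 ± 0.15 at day 7 (edgeR adjusted p = 0.226) and -0.82 ± 0.16 at day 4 (edgeR adjusted p = 0.00312), a difference of 1.14 ± 0.22 (edgeR adjusted p = 0.0145). Pfkfb4 makes and breaks down the same regulator as Pfkfb3. It stood at 26.2 and 29.2 CPM in irradiated and 26.2 and 27.0 CPM in control organoids at day 7, and at 36.5 and 52.6 in irradiated and 22.0 and 22.4 CPM in control organoids at day 4. Its groups overlapped at day 7 and lay apart at day 4. The log2 effect was 0.06 ± 0.17 at day 7 and 1.00 ± 0.16 at day 4 (edgeR adjusted p = 0.87 and 0.000913), a difference of -0.95 ± 0.23 (edgeR adjusted p = 0.0291). For the other 36 members no difference between the days was called, with values between -1.57 (Slc16a3) and 0.81 (Stc2). That comparison changed with the irradiated libraries of day 4. The members' median was -0.13 with both, 0.46 without replicate 2 and -0.48 without replicate 1. Of the 38 values 26 were below 0 with both, 7 without replicate 2 and 33 without replicate 1.

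In control organoids the members were lower at day 7 than at day 4, but none was called by edgeR in the fit of all groups. Of the 38 values 36 were below 0, with a median of -0.50 against 0.00 over all tested genes, and the comparison called 2.72% of all tested genes, 1.46% lower and 1.25% higher. Both day 7 libraries lay below both day 4 libraries in 35 members and above them in 2, where 26.5% and 26.0% of all tested genes lay so. Egln3 had 65.8 and 67.9 CPM at day 7 and 162 and 221 CPM at day 4 (-1.52 ± 0.71, edgeR adjusted p = 0.362), and Pgk1 had 1139.8 and 1138 CPM at day 7 and 1768 and 1906 CPM at day 4 (-0.69 ± 0.25, edgeR adjusted p = 0.226). At an unadjusted p below 0.05, 9 members were lower and 0 higher, and the share of all genes at that level was not counted. DESeq2 called 5 lower, with 1.81% of all genes lower. A fit of the control libraries alone called 25, with 2.71% lower, and a fit with the replicate number as a block 1, with 1.83% lower. Leaving out an irradiated library of day 4 raised the calls among the members and over all genes. Cell type markers moved in the same comparison: 4 of 6 goblet markers were called lower, 2 of 6 enteroendocrine markers were called lower (summed to 409.9 to 413.5 TPM at day 7 and 875 to 1434 TPM at day 4), and 3 of 5 crypt base stem cell markers were called higher. Their part in the members' values was not tested.

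In irradiated organoids 7 members fell at day 7 relative to day 4 and Ddit4 rose, where 18.3% of all tested genes were called lower and 14.7% higher. The 7 are 18.4% of the members, near the share of all genes. They are given as single genes, and their count says nothing about the members. The 7 were Bnip3l, Ndrg1, Vldlr, Mxi1, Hk1, Pfkfb3 and Pfkfb4. Hk1 had 14.4 and 15.3 CPM at day 7 and 34.6 and 54.2 CPM at day 4 (-1.58 ± 0.20, edgeR adjusted p = 0.000608), and Ndrg1 had 315 and 304 CPM at day 7 and 560.1 and 834 CPM at day 4 (-1.17 ± 0.16, edgeR adjusted p = 0.000959). Ddit4 had 78.8 and 70.4 CPM at day 7 and 45.2 and 35.4 CPM at day 4 (0.89 ± 0.16, edgeR adjusted p = 0.0029). The calls of Hk1, Ndrg1 and Ddit4 were kept in all 17 alternatives. In 19 members both day 7 libraries lay below both day 4 libraries and in 1 above, with 37.1% and 32.6% of all tested genes in those positions. Over all members the median was -0.71 with 37 values below 0, but without irradiated replicate 2 of day 4 it was -0.10 with 21 below 0, and on the log2(TPM + 1) scale, with a shift of 0.30 in the median over all genes, it was -0.29 with 25 below 0. On that scale 5.28% of genes were called lower and 23.3% higher. Markers of most epithelial cell types moved as well: 5 of 5 Paneth, 6 of 6 goblet, 6 of 6 enteroendocrine and 9 of 10 enterocyte markers were called lower at day 7, and 8 of 8 proliferation and 5 of 5 crypt base stem cell markers higher. The part of these shifts in the members' values was not tested.

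Counts for other genes of these pathways stand against shares of all tested genes of 20.0% higher and 16.5% lower at day 4, and of 4.70% higher and 3.95% lower at day 7. These shares are of calls at an adjusted p below 0.05. No such share was counted at an unadjusted p below 0.05. Of 11 further HIF pathway components 3 rose and 2 fell at day 4, and 2 rose and 0 fell at day 7 (edgeR adjusted p below 0.05; 0 lower at an unadjusted p below 0.05), with a median of -0.03 at day 4, and the day 4 counts were near those shares. Arnt2, a partner subunit of the HIF family, had 48.3 and 29.6 CPM in irradiated and 13.7 and 7.38 CPM in control organoids at day 4 (1.91 ± 0.33, edgeR adjusted p = 0.00419). Epas1, a second HIF alpha subunit, had 47.1 and 51.6 in irradiated and 18.9 and 31.2 CPM in control organoids (0.96 ± 0.20, edgeR adjusted p = 0.00554). Both rose, without overlap. Siah2, a ubiquitin ligase that acts on the hydroxylases (-0.90), and Cited2, which competes with HIF for a coactivator (-0.46), fell at day 4. Hif3a (0.70) and Rbx1 (0.47) rose at day 7.

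Of 24 tested further HIF target genes, from a list of 28, 10 fell and 4 rose at day 4, and 4 fell and 0 rose at day 7 (1 higher at an unadjusted p below 0.05), with medians of -0.32 and -0.36. Mif, a cytokine, had 47.0 and 60.4 CPM in irradiated and 120.4 and 159 CPM in control organoids at day 4 (-1.38 ± 0.15, edgeR adjusted p = 0.000183). At day 7 it had 59.9 and 65.8 in irradiated and 109 and 109 CPM in control organoids (-0.79 ± 0.15, edgeR adjusted p = 0.0157). It fell at both days. Zfp395 fell at day 4 (-1.44) and Plod2, a collagen lysyl hydroxylase, at day 7 (-1.28). Angptl4, an inhibitor of lipoprotein lipase, and Insig2, which restrains sterol synthesis, rose at day 4 (1.37 and 0.74).

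Isozymes and reverse-direction enzymes of glucose metabolism were called in both directions at day 4. Of 13 tested further glycolysis genes, from a list of 18, 6 rose and 2 fell at day 4 and 0 were called at day 7, where 2 were higher and 2 lower at an unadjusted p below 0.05. Ldhd, which oxidises D-lactate, rose at day 4 (1.62), and Pfkm, the muscle phosphofructokinase, and Slc16a1, another lactate transporter, fell (-0.58 and -0.40). Of 6 gluconeogenesis genes 3 rose and 1 fell at day 4: G6pc, which releases free glucose, had 51.5 and 97.2 CPM in irradiated and 6.99 and 2.86 CPM in control organoids (edgeR adjusted p = 0.00175), and Pck2 fell (-1.26). Pck1, the first committed enzyme of gluconeogenesis, rose at both days, with 18.9 and 19.4 CPM in irradiated and 0.511 and 1.10 CPM in control organoids at day 4 and 1.33 and 2.65 in irradiated and 0 and 0.184 CPM in control organoids at day 7 (edgeR adjusted p = 2.96e-05 and 0.0124). The 10 enterocyte markers, a list without G6pc and Pck1, summed to 5212 and 7887 TPM in irradiated and 1052 to 1205 TPM in control organoids at day 4, and the part of that shift in these rises was not tested.

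Of 12 genes of pyruvate entry and oxidation 4 rose and 2 fell at day 4, where 16.5% of all tested genes fell, and 2 rose at day 7. Pdk4, a relative of Pdk1 that is induced by fasting and fatty acids, had 18.2 and 20.4 CPM in irradiated and 0.426 and 2.38 CPM in control organoids at day 4 (3.67 ± 0.49, edgeR adjusted p = 0.000852), so that it rose where Pdk1 fell. Pcx, the pyruvate carboxylase, rose at both days (1.89 and 0.80), and Pdp2 and Pdha1 fell at day 4 (-0.59 and -0.23). Mpc2, a subunit of the mitochondrial pyruvate carrier, rose at day 7 (0.52). Of 7 pentose phosphate genes 3 fell and 1 rose at day 4, and 3 rose at day 7. Taldo1, the transaldolase, rose at both days (0.53 and 0.56), Rpia and Tkt fell at day 4 (-0.77 and -0.31), and Pgd rose at day 7 (0.44).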

How the data were processed

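RNA was sequenced from poly-A selected libraries made with a stranded kit, per the labels' protocols. Per the file headers, the authors deposited expected counts per gene in 1 table and TPM in another, with libraries as columns. An expected count need not be whole, since RSEM divides a read among the genes it could come from. Tools named, per the submitters' processing notes, were RSEM 1.3.3, STAR 2.7.3a, Trim Galore and FastQC. The notes also name mm10 and GRCm39 with no role for each. The strand setting and annotation release were not given in the sources used here. Antisense genes may therefore share reads.

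Ensembl IDs were given symbols by exact match to GENCODE M21, for 52083 of 55416 genes. Of 2 rows named Aldoa, that with most counts was used. The 38 members, the pathway lists and the tests were chosen with earlier results of these data known. Expected counts were rounded, which changed 11.4% of values. Low genes were removed with filterByExpr (minimum count 10 and total 15), which kept 14063 genes, and the lowest share of a library's counts kept was 99.8%. CPM were scaled by TMM. All genes were tested with edgeR 4.0.16 in R 4.3.3 (robust quasi-likelihood F-test) in 1 fit of 4 group means over 8 libraries (residual degrees of freedom 4). Two-sided p-values were adjusted by the Benjamini-Hochberg method over all genes tested in a comparison, and a gene was called at an adjusted p below 0.05. Standard errors are the log2 fold change over the root of the F statistic. The fit was also run on simulated counts in which all genes and groups had the same spread. No group there held libraries set apart like those of irradiated organoids at day 4, so the run does not cover that case. Genes named are, in each role, up to 3 members with at least 5 CPM and the largest change after irradiation, and from each pathway list up to 2 genes called in each direction with the smallest p. Pfkfb4, Ddit4 and the library values of Ndrg1 and Gpi1 were added after their values were seen, and other members are given by range. The result of 1 gene that this rule names is not reported here.

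The alternatives tried were no filter, scaling by size factors, DESeq2 1.42.0, limma 3.58.1 on log2(TPM + 1) and log2(TPM + 0.1) where 2 libraries had a TPM of 1 or more, log2(TPM + 1) without that filter, no mitochondrial genes, the replicate number as a block, only the 2 groups compared, and leaving out each library.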

Additional observations from a re-analysis of the deposited data

Results flagged for a closer look

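The irradiation effect differed between day 7 and day 4 for 2 of the 38 members by the test of the difference itself. That test called 10.1% of all tested genes, so the 2 are given as single genes and their count says nothing about the members. The effect on Ddit4 changed by 1.14 on the log2 scale, day 7 less day 4 (edgeR adjusted p = 0.0145). Its irradiated libraries lay above both controls at day 7, where Ddit4 was not called, and below both at day 4. The effect on Pfkfb4 changed by -0.95 on the log2 scale, with overlapping groups at day 7 and both irradiated libraries above both controls at day 4 (edgeR adjusted p = 0.0291). The calls were kept in 10 of 16 alternatives for Ddit4 and in 7 of 16 for Pfkfb4, and both were lost in the 3 fits to TPM.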

How the results depend on the processing

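Counts of members called lower after irradiation depended on the processing. At day 4 the count was 18, with 16.5% of all genes called lower. It was 30 in both filtered log2 TPM fits (pseudocounts 1 and 0.1), with 12.0% lower in each. It was 10 in a fit of only the 2 groups, with 9.76% lower. The count called higher was 1 in those 3 fits, in the unfiltered TPM fit and by DESeq2. Leaving out 1 library gave 8 to 36 lower and 1 to 2 higher at day 4, with 11 and 8 lower without control replicate 1 or 2 of day 4. At day 7 the count was 22 by DESeq2 (2.51% of all genes lower) and 35 in the fit of only the 2 groups (17.5%). It was 9 and 9 in the filtered TPM fits (0.493% and 0.528%) and 0 in the unfiltered one (0.0195%). The count called higher was 1 with no filter on counts and 2 with only the 2 groups. Leaving out 1 library gave members' medians between -0.97 and -0.88 at day 7, and most calls were lost without any 1 library of day 7. For irradiation by day, no filter gave 3 higher and 4 lower, with 4.69% of all genes higher and 3.37% lower. The 3 TPM fits gave 0 and 0, and leaving out 1 library gave members' medians between -0.48 and 0.46. For day 7 against day 4 in controls, no filter gave 11 lower, DESeq2 5 and only the 2 groups 25, and leaving out 1 library gave 0 to 31 lower and 0 to 0 higher. In irradiated organoids the filtered TPM fits gave 4 and 4 lower, the unfiltered one 2 and only the 2 groups 4, and leaving out 1 library gave 3 to 34 lower and 1 to 5 higher. Without irradiated replicate 2 of day 4 the difference of the irradiation effect, day 7 less day 4, was Car9 0.67, Ankrd37 1.23, Pfkl 0.50, Tpi1 0.35 and Pgk1 0.47. Without irradiated replicate 1 it was Car9 -0.68, Ankrd37 -1.32, Pfkl -0.60, Tpi1 -0.31 and Pgk1 -0.41, of the other sign. For day 7 against day 4 in irradiated organoids, Egln1 was 0.36, Stc2 0.74, Pdk1 0.29 and Pfkl 0.29 without replicate 2, and Egln1 -0.29, Stc2 -0.53, Pdk1 -0.49 and Pfkl -0.81 without replicate 1. Hif1a at day 4 was -0.013 in all 3 TPM fits. Over all genes the count called ran from 1434 to 5629 at day 4 (5130 in the fit of all groups), from 44 to 4732 at day 7 (1216), from 4 to 2718 for irradiation by day (1422), from 3 to 1234 over time in controls (382) and from 1396 to 5252 over time in irradiated organoids (4639). The cause of these changes was not tested.

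Same-numbered libraries showed no common deviation over all tested genes: the correlation lay between -0.035 and 0.058 over 6 pairs of groups. This does not show that the libraries were unpaired, since a shared origin with a small effect would look the same. Among the 16 glycolytic members replicate 2 was above replicate 1 in 16 in both groups of day 4. At day 7 it was above in 13 in irradiated and 11 in control organoids. Over all tested genes the share was 47.5% to 50.9%. Whether same-numbered libraries shared an origin was not tested. With the replicate block, 1 member was called lower in controls at day 7 against day 4, and no other count of members moved by over 1.5 times. With 2 libraries per group, a p above the threshold does not show that a gene did not differ, and 1 count stood for 0.0610 to 0.120 CPM.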
